A study of Rattus norvegicus with 8 samples.

Results

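The 9 genes described here encode 6 soluble proteins of the complement system (C1qa, C1qb, C1qc, C3, C6 and Cfi) and 3 receptors of leukocytes that bind complement fragments (C3ar1, C5ar1 and Itgb2). They were chosen by name from the 12765 genes for which the deposited table of expression values has a probe with a RefSeq symbol, and all 9 were found. Each was measured by 1 probe, on 8 one-colour Agilent arrays of rat RNA, 1 array per group. The nerve groups were the distal and the proximal segment of a left sciatic nerve cut at mid-thigh, and the uncut contralateral nerve of the right side, all on day 1 after the cut, in adult female Sprague-Dawley rats, with 3 animals pooled per array. The cord groups, also pools of 3, were taken on day 5, with dorsal hemisection and C-level control as their names. The label of the right nerve calls it a control and a site of PBS (saline buffer) injection. The cord labels count their days from an injection without naming what was injected, while the protocol counts from injury. The Schwann cell groups were primary cultures from newborn Sprague-Dawley rats, either unstimulated or exposed to S100A8/A9, a pair of neutrophil proteins, for 1 h or 24 h (5 µg/ml). The unstimulated culture is that of 24 h and stands against both times. The cultures had been cleared of fibroblasts with cytosine arabinoside, an antibody and rabbit complement, and grew in medium with fetal bovine serum, bovine pituitary extract and forskolin.

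Complement is a cascade of plasma proteins that marks cells and debris for removal. C1q, assembled from the products of C1qa, C1qb and C1qc, recognises antibody and damaged surfaces and starts the classical pathway, and all pathways meet at the cleavage of C3. The small fragments C3a and C5a attract and activate leukocytes through the receptors C3ar1 and C5ar1, and C3 fragments left on a surface are bound by integrins that contain the beta 2 chain Itgb2. C6 is a part of the membrane attack complex, and Cfi is the protease factor I, which inactivates C3b and C4b. In injured peripheral nerve complement is known for the opsonisation of degenerating myelin, which macrophages then clear. C1q is made largely by macrophages and microglia, and the receptors are carried by neutrophils and monocytes, among other cells.

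C1qb, C1qc and C1qa lie next to each other on chromosome 5 in the RefSeq annotation, with no other gene between them. C1qa and C1qb are shown because their values ran together in nerve and cord and far apart in the Schwann cell cultures, and C3 and C6 because their values stood in opposite order in nerve and cord. RefSeq promoter sequences of assembly GRCr8 were found for 6 of the 9 genes (C1qa, C1qb, C3, C6, Cfi and C3ar1). The 250 bases before the start site are given 5′ to 3′ on the strand of the gene, which is the minus strand at chr5:154419934-154420183 (C1qa), chr5:154407828-154408077 (C1qb) and chr9:2201340-2201589 (C3), and the plus strand at chr2:55573383-55573632 (C6). Capitals mark matches to TTGCNNAA, a core of sites for C/EBP factors, on either strand.
C1qa: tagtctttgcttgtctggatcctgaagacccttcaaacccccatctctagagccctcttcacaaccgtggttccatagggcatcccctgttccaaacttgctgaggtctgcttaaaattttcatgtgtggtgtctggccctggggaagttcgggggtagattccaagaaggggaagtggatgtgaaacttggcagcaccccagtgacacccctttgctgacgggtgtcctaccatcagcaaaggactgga
C1qb: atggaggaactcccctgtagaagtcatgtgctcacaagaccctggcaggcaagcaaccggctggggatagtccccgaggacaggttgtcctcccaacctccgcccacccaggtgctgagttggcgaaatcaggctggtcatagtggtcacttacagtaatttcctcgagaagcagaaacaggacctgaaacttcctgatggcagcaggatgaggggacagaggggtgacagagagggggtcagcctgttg
C3: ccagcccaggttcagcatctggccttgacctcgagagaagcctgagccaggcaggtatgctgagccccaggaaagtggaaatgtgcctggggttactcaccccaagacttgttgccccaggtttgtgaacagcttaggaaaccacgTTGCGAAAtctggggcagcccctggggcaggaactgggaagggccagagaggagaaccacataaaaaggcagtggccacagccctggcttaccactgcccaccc
C6: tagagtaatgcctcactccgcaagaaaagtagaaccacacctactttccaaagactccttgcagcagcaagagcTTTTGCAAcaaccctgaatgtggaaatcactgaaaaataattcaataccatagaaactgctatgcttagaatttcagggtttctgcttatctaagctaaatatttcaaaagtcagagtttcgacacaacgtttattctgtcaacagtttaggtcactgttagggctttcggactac
The match in the C3 window lies on the strand of the gene at bases -104 to -97 from the start site, and that in the C6 window on the other strand at bases -176 to -169. The same letters occur on either strand in 9.22% of 33469 RefSeq windows of this length, and in 2 of the 6 windows of the genes described here. The letters GAGGAAG, a box bound by PU.1 that 10.2% of all windows hold, were in none of the 6 windows on either strand. Neither was an NF-kB consensus found in 0.974% of windows, nor TATAAA, the core of promoters that bind the TATA-binding protein, found in 12.9%. Each of the 6 windows held at most 1 match. These matches are descriptions of letters and not evidence of binding.

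The sources disagree on which array belongs to which sample. The samples are named here by the column headings of the authors' value table. The records of the scanner files disagree with them: for 7 of the 8 columns the scan with the same ranking of probes is filed under a different sample (Spearman rho across probes 1.000), and the column's own scan by record ranked differently (rho 0.802 to 0.900). By the headings, the summed level of 6 neuron markers was 28300 and 80900 in the cord samples, 1380 to 3580 in the nerves and 783 to 1060 in the Schwann cells (linear scale of the deposited values), so tissues went with their labels. By the records, the array with 28300 would be the contralateral nerve and that with 80900 the 24 h Schwann cell culture, so there tissues did not go with their labels. Ratios given below for the scans as recorded therefore mostly compare other tissues than their names give. All 9 Schwann cell markers listed were well above background in the 3 cultures, as were 9, 8 and 9 of 14 macrophage markers and 4, 5 and 6 of 12 neutrophil markers (unstimulated, 1 h and 24 h). Those not above it in any culture included S100a8, S100a9, Msr1, Cd163, Mrc1 and Fcgr1a. The markers do not test labels within 1 tissue, and every direction below rests on the headings. The share of probes well above background ran from 66.7% to 77.6%. With 1 array per group no difference has a replicate check and none was tested. Errors after ± are technical, from the spread between spots of the same probe on an array, and fewer cells of a type cannot be told apart from less RNA per cell. A gene is called higher or lower where 2 arrays differ by at least 2-fold, which is 1 on the log2 scale.

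The distal nerve had higher values of all 3 receptors than the contralateral nerve, and lower values of the 3 C1q chains and C6 that did not reach 2-fold. C3ar1, the receptor of C3a, had log2 values of 10.30 in the distal, 9.31 in the proximal and 6.87 in the contralateral nerve. Its log2 ratio of distal over contralateral nerve was 3.43 ± 0.19, a 10.8-fold difference. Itgb2, the shared chain of the leukocyte integrins, stood at 11.87 in the distal, 11.28 in the proximal and 9.01 in the contralateral nerve. Both injured segments were above the contralateral nerve for each of these genes, and the distal one was the highest. C5ar1, the receptor of C5a, had 12.70 in the distal, 12.20 in the proximal and 10.35 in the contralateral nerve. The distal ratios were 2.87 ± 0.04 for Itgb2 (7.30-fold) and 2.34 ± 0.08 for C5ar1 (5.07-fold).

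The soluble components did not follow the receptors. C1qa had log2 values of 14.01 in the distal, 13.86 in the proximal and 14.82 in the contralateral nerve. C1qb had 15.76 in the distal, 15.77 in the proximal and 16.71 in the contralateral nerve, and C1qc had 12.50, 12.51 and 13.12 in the same order. All 3 chains of C1q were thus highest in the contralateral nerve, and for C1qb and C1qc the injured segments differed from each other by less than the technical error. The distal over contralateral ratios were -0.81 ± 0.07 for C1qa, -0.94 ± 0.06 for C1qb and -0.62 ± 0.08 for C1qc. C6 stood at 11.37 in the distal, 10.51 in the proximal and 12.00 in the contralateral nerve, with a distal ratio of -0.63 ± 0.08. C3, the central component, had 10.04 in the distal, 10.46 in the proximal and 9.70 in the contralateral nerve and a distal ratio of 0.34 ± 0.08. Factor I went the way of the receptors: Cfi had 8.55 in the distal, 8.73 in the proximal and 7.37 in the contralateral nerve, a distal ratio of 1.18 ± 0.07. In all, 4 of the 9 genes were at least 2-fold higher in the distal nerve and none lower, where 13.9% of the 12132 genes measured were higher and 14.3% lower (28.2% apart). The median log2 ratio was 2.87 over the 3 receptors and -0.62 over the 6 soluble components, beside 0.01 over all genes. With normexp background correction Cfi was at 0.89, under 2-fold. The scan recorded as contralateral nerve ranks as the hemisection cord column. With the scans as recorded the ratios thus set distal nerve against that scan and do not check the comparison named here. They were 3.06, 1.30 and 1.21 for C5ar1, C3ar1 and Itgb2, 0.10 for Cfi, -3.12 for C3 and 1.98 for C6.

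**Figure D1:**
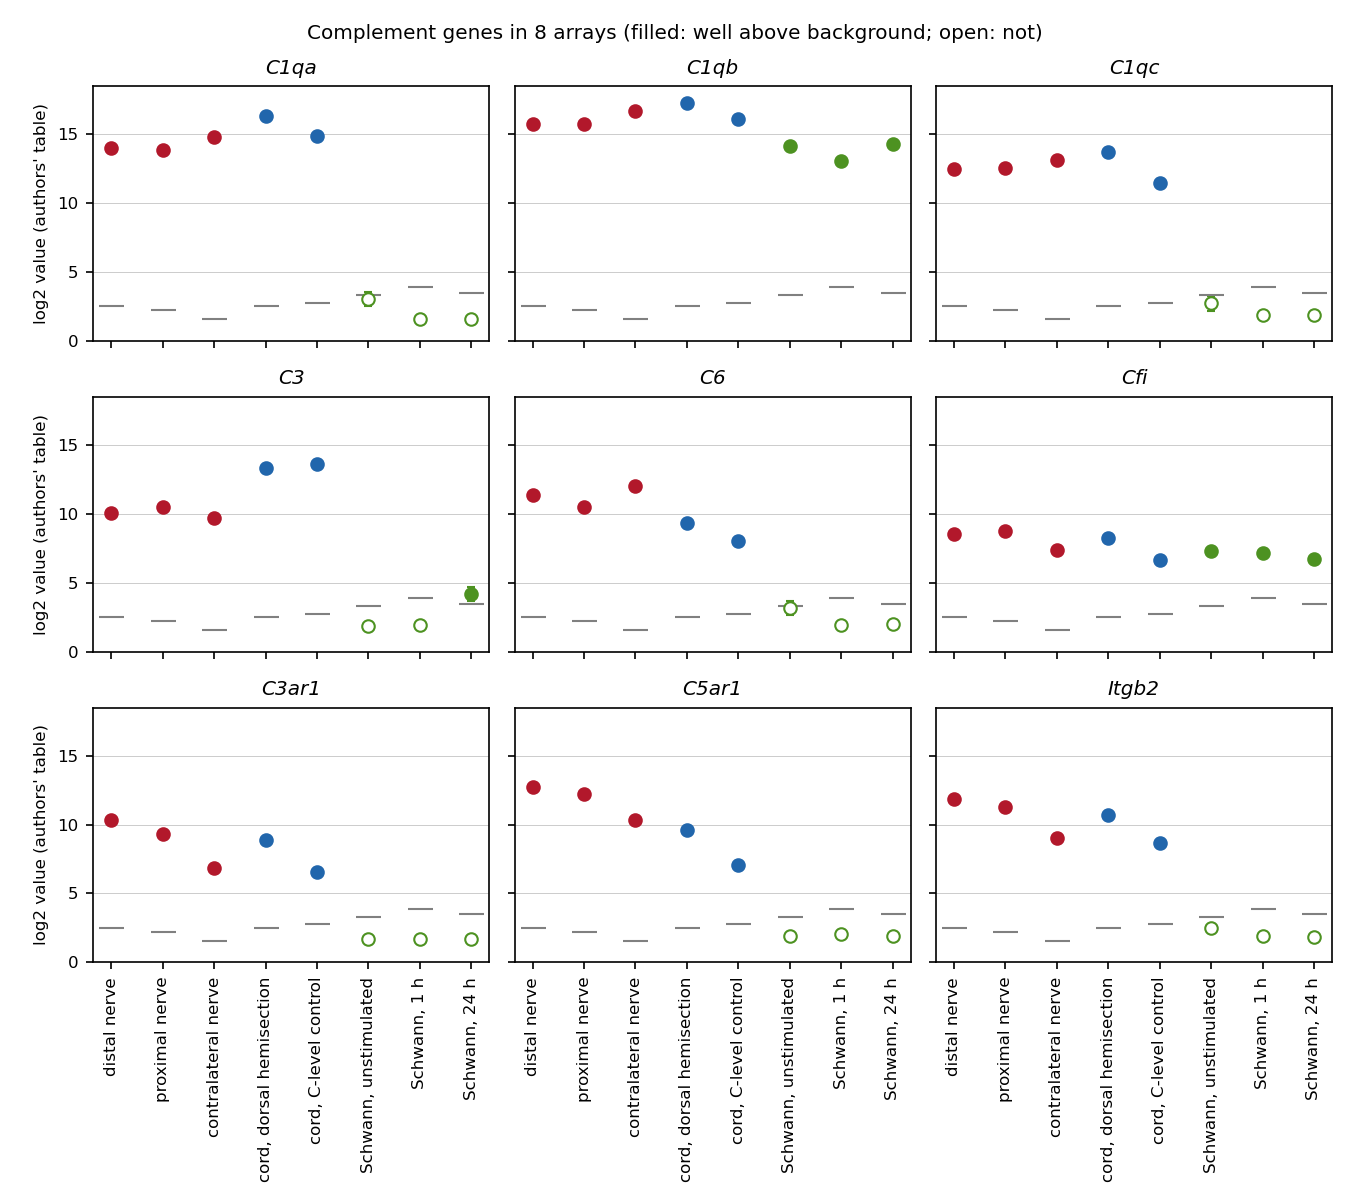
Log2 values of the 9 genes (1 panel each) on the 8 arrays, in red for nerve, blue for cord and green for Schwann cells. Filled points were well above background, open points were not, bars are the technical error and grey dashes mark the lowest value that was well above background on that array. The receptors C3ar1, C5ar1 and Itgb2 are highest in the distal nerve and not above background in any culture, C3 is higher in cord than in nerve, and C1qb stays between 13.07 and 14.27 in the cultures while C1qa and C1qc are not above background there.

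The proximal nerve, set against the same contralateral array, gave ratios of 2.45 ± 0.19 for C3ar1, 2.28 ± 0.04 for Itgb2 and 1.84 ± 0.08 for C5ar1. Its C1q ratios were -0.97 ± 0.07 for C1qa, -0.93 ± 0.06 for C1qb and -0.61 ± 0.08 for C1qc. Every receptor was again at least 2-fold higher and every C1q chain lower by less than 2-fold. The gene that was at least 2-fold lower was C6, at -1.49 ± 0.08, a 2.81-fold difference. Cfi was at 1.36 ± 0.06 and C3 at 0.76 ± 0.08. So 4 of 9 genes were at least 2-fold higher and 1 lower, where 11.7% of 12243 genes were higher and 11.8% lower (23.5% apart). The receptor median was 2.28 and the soluble median -0.77. Both segments share the contralateral array, so any feature of that array enters both sets of ratios alike. The scans recorded as proximal and contralateral nerve rank as the 1 h Schwann cell and the hemisection cord columns. In that pair all 4 higher genes were lower (C3ar1 -5.95, C5ar1 -6.60, Itgb2 -7.58 and Cfi -1.65).

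Set directly against each other, the segments did not differ by 2-fold for any of the 9 genes, where 3.17% of 12222 genes did (1.24% higher and 1.94% lower). The distal over proximal ratio was 0.98 ± 0.07 for C3ar1, just under 2-fold, and 0.59 ± 0.03 for Itgb2 and 0.50 ± 0.06 for C5ar1. C6 was at 0.87 ± 0.06 and C3 at -0.42 ± 0.06. The C1q chains were at 0.16 ± 0.05 (C1qa), -0.01 ± 0.05 (C1qb) and -0.01 ± 0.06 (C1qc), and Cfi at -0.18 ± 0.06. None of the 26 other complement genes with values was 2-fold apart either, within a range of -0.72 to 0.94. Taking the scans as recorded, all 9 genes were at least 2-fold higher in the distal nerve, but the scan recorded as proximal ranks as the 1 h Schwann cell column.

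**Figure D2:**
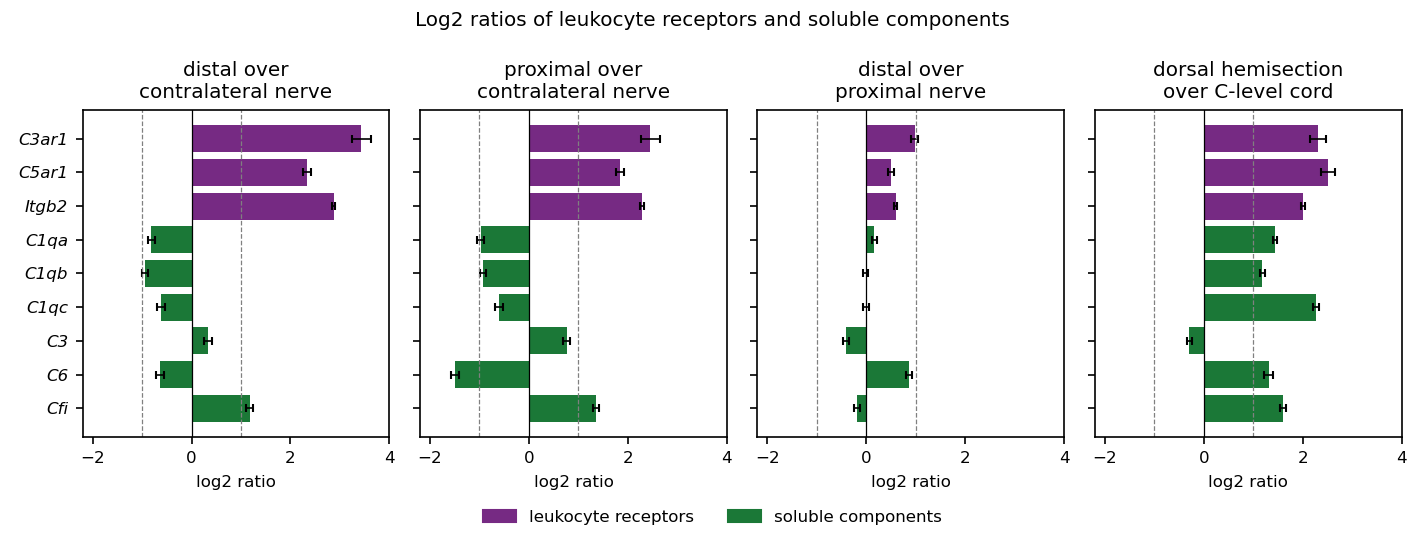
Log2 ratios of the 9 genes in the nerve and cord comparisons, with receptors in purple above soluble components in green. Bars are single ratios of 2 arrays, error bars the technical error and dashed lines the 2-fold threshold. The 3 receptors exceed 1 in both comparisons with the contralateral nerve and in the cord, while the C1q chains lie below 0 in both of these nerve comparisons and above 1 in the cord, and no gene reaches 1 in the distal over the proximal nerve.

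The cord samples differed from each other in both classes of gene. In the dorsal hemisection sample 8 of the 9 genes were at least 2-fold higher than in the C-level control and none lower, where 10.2% of 12196 genes were higher and 9.24% lower (19.4% apart). C5ar1 had log2 values of 9.60 in the hemisection and 7.08 in the control sample, a ratio of 2.52 ± 0.14. C3ar1 had 8.88 and 6.57 (2.31 ± 0.17), and Itgb2 10.67 and 8.68 (2.0 ± 0.04), in the same order. Here the C1q chains were higher too, while both injured segments had them below the contralateral nerve. This difference between tissues was not tested. C1qc had 13.69 in the hemisection and 11.42 in the control sample (2.26 ± 0.06), C1qa 16.29 and 14.85 (1.44 ± 0.05) and C1qb 17.29 and 16.10 (1.18 ± 0.05). Cfi was at 8.27 in the hemisection and 6.67 in the control sample (1.60 ± 0.06) and C6 at 9.31 and 8.0 (1.31 ± 0.09). The exception was C3, with 13.32 in the hemisection and 13.60 in the control sample, a ratio of -0.29 ± 0.05. The medians were 2.31 over the receptors and 1.38 over the soluble components, against -0.04 over all genes. By the scans as recorded, which rank as the unstimulated and 24 h Schwann cell columns, none of the 9 was 2-fold apart. In that pair 6 of them had no measured value, and C1qb was at -0.07.

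Markers of cell types also differed between these samples, and not always in the direction of the 9 genes. In the distal nerve 12 of 14 monocyte and macrophage markers were at least 2-fold higher and none lower, with a summed level of 419000 in the distal and 173000 in the contralateral nerve. Of 12 neutrophil markers 9 were higher and 1 lower, with sums of 42900 in the distal and 3310 in the contralateral nerve, where Mmp8 and Clec4d were not above background (Elane was not above it in the distal nerve). The 14 macrophage ratios ran from 0.01 for Adgre1 to 3.78 for Msr1, so each of the 3 C1q ratios lay below all of them. In the proximal nerve 10 of 14 macrophage and 9 of 12 neutrophil markers were higher, with sums of 338000 and 34000, and the lowest macrophage ratio was -0.80, for Adgre1. Fibroblast markers were at least 2-fold lower for 5 of 7 in the distal and 4 of 7 in the proximal nerve, with sums of 252000 in the distal, 293000 in the proximal and 657000 in the contralateral nerve. Skeletal muscle markers were higher for 5 of 6 in the distal and 6 of 6 in the proximal nerve, with sums of 4370 in the distal, 40400 in the proximal and 1720 in the contralateral nerve. T and NK cell markers had sums of 3470, 2430 and 962 in the same order, with Cd3e and Klrb1b not above background in the contralateral nerve. The sums of Schwann cell markers were 156000, 191000 and 428000, and those of adipocyte markers 28500, 18700 and 48300. In the cord 12 of 14 macrophage, 7 of 11 neutrophil and 3 of 7 microglia markers were higher in the hemisection sample. Their sums there were 348000, 9750 and 97700, against 90400, 4620 and 49900 in the C-level control. The hemisection sample also had 5 of 7 fibroblast markers higher (sums 124000 in the hemisection and 28800 in the control sample), 5 of 9 Schwann cell markers higher, among them the myelin gene Prx (2.73), with a sum of 188000 in the hemisection and 226000 in the control sample, and 5 of 6 neuron markers lower. Adipocyte markers had sums of 468 in the hemisection, where 2 of 3 were above background, and 2340 in the control sample. Those of skeletal muscle were 3880 in the hemisection and 5920 in the control sample. The part of these cells in the complement values was not tested.

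**Figure D3:**
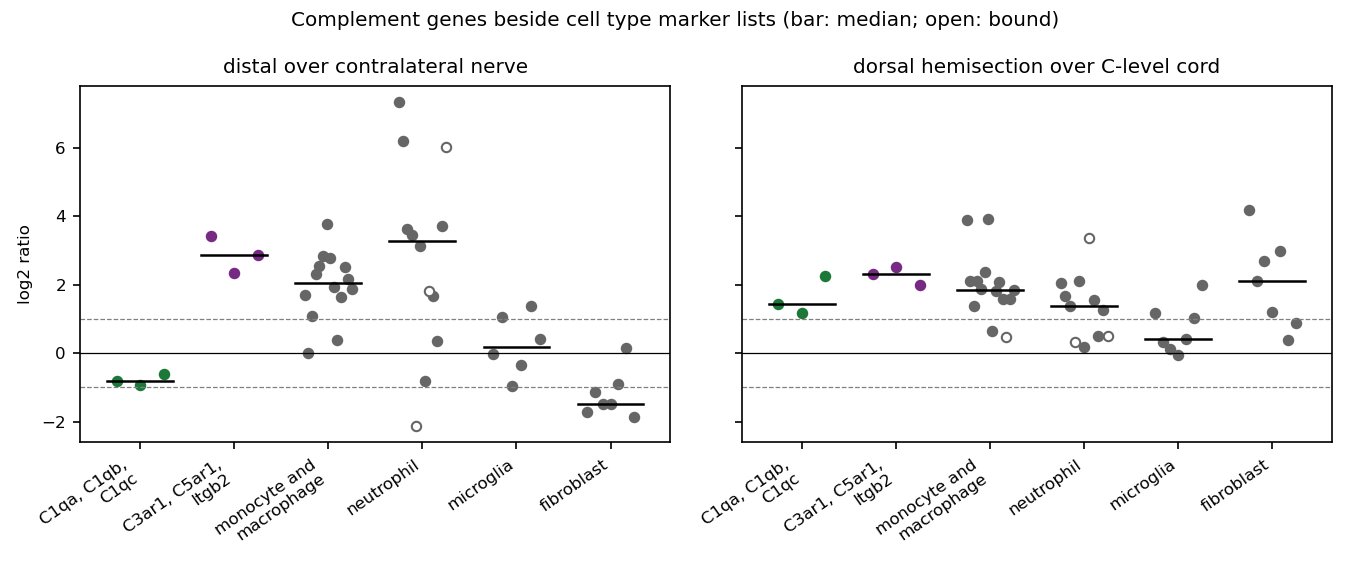
Log2 ratios of C1q chains (green), leukocyte receptors (purple) and cell type marker lists (grey) in the distal over the contralateral nerve (left) and in the dorsal hemisection over the C-level cord (right). Each point is a gene, black bars are medians and open points are bounds, with 1 array not above background. In the distal nerve the C1q chains lie below 0 while the median of the macrophage list is 2.04, and in the cord both are above 1.

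Across tissues the soluble components had unlike patterns. C3 was higher in cord than in nerve: 9.70 in the contralateral nerve and 13.60 in the C-level cord, a ratio of nerve over cord of -3.90 ± 0.08, or 14.95-fold. C6 had the opposite order, with 12.00 in the contralateral nerve and 8.0 in the C-level cord (4.00 ± 0.10, 16.04-fold). Every nerve sample was below every cord sample for C3 and above every cord sample for C6. C5ar1 was higher in the contralateral nerve by 3.28 ± 0.14, and all 3 nerve samples exceeded both cord samples. The other receptors did not separate the tissues, with C3ar1 at 0.30 ± 0.24 and Itgb2 at 0.33 ± 0.05, and the hemisection cord exceeded the contralateral nerve for both. C1qc was at 1.70 ± 0.08, Cfi at 0.70 ± 0.07 and C1qb at 0.60 ± 0.06, and C1qa at -0.02 ± 0.07, within its technical error. By this rule 3 of 9 genes were higher in the nerve and 1 lower, where 19.8% of 12215 genes were higher and 18.6% lower (38.4% apart). With the processed signal of the matching scans C1qb was at 1.19 and C3ar1 at 0.00. The scans as recorded here rank as the hemisection cord and the 24 h Schwann cell columns. In that pair C3 was at 9.61, all 9 genes being higher in the scan recorded as nerve.

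In the Schwann cell cultures 6 of the 9 genes were not above background on any array: C1qa, C1qc, C6, C3ar1, C5ar1 and Itgb2. Against the contralateral nerve the unstimulated cells therefore give bounds, taken against the lowest value well above background on the dimmer array. That value was 3.32 in unstimulated cells, where the complement gene Serping1 at 4.43 was not above background, so these bounds are nominal. The log2 ratio was at most -11.51 for C1qa, -9.81 for C1qc, -8.68 for C6, -7.04 for C5ar1, -6.39 for C3, -5.69 for Itgb2 and -3.55 for C3ar1. With normexp these bounds shrank to between -8.61 (C1qa) and -1.21 (C3ar1). Of the 9 genes 8 were at least 2-fold lower in the cultures and none higher, where 20.8% of 11944 genes were lower and 21.6% higher (42.3% apart). The macrophage markers, of which 8 or 9 of 14 were above background in the cultures, had sums of 1010 to 1090 there, against 173000 in the contralateral nerve. Cfi and C1qb differed from the rest. Cfi had 7.28 in unstimulated cells, 7.19 at 1 h and 6.74 at 24 h, and the unstimulated cells were at -0.09 ± 0.08 from the contralateral nerve. C1qb had 14.14 in unstimulated cells, 13.07 at 1 h and 14.27 at 24 h, with processed scanner signals of 20000, 11700 and 21100. Its ratio of unstimulated cells over contralateral nerve was -2.57 ± 0.06, while its neighbours C1qa and C1qc, which encode the partner chains of the same protein, had signals of 2.93 to 5.26 on these arrays. The C1qb value rests on 1 probe, whose sequence was not used here, and binding of other transcripts to it was not tested. With the scans as recorded, which rank as the proximal nerve and the hemisection cord columns, C6, C3ar1, C5ar1 and Itgb2 had ratios of 1.11, 0.33, 2.55 and 0.64.

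Stimulation with S100A8/A9 was measured on the few genes above background. At 1 h C1qb was at -1.07 ± 0.05 against unstimulated cells and Cfi at -0.10 ± 0.08, so 1 of the 2 genes measured was at least 2-fold lower, where 1.34% of 10968 genes were lower and 1.69% higher (3.03% apart). With the processed signal of the matching scans C1qb was at -1.0, just short of 2-fold. At 24 h C1qb was at 0.13 ± 0.05 and Cfi at -0.54 ± 0.09. C3 was not above background in unstimulated cells (1.85) or at 1 h (1.92) and was above it at 24 h (4.20). Against the lowest value well above background in unstimulated cells (3.32) its log2 ratio was 0.88, or 0.18 with normexp. This is not a firm bound, since the complement gene Serping1 at 4.43 was not above background in those cells. At 24 h the complement gene Cfp at 4.41 was not above it either, so C3 lies near the floor. None of the 3 genes measured at 24 h was 2-fold apart, where 1.26% of 11025 genes were (0.635% higher and 0.626% lower). The receptors were not above background at either time. The 1 h culture is compared with the unstimulated culture of 24 h, so time in culture and stimulation cannot be told apart there. With the scans as recorded C1qb was at 0.81 at 1 h, and Cfi at -1.30 at 1 h and -1.70 at 24 h. Those scans rank as the contralateral nerve (1 h), C-level cord (24 h) and proximal nerve (unstimulated) columns.

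The other genes of the system were taken from a list of 42, of which 26 had values. In the distal nerve 5 of 26 were at least 2-fold higher and 3 lower, with a median of -0.12. Over all genes 13.9% were higher and 14.3% lower, so the counts of the list lie near the background and are a description of its members. The higher ones were the second C5a receptor C5ar2 (at least 3.20, since the contralateral nerve was not above background), C4bpa, the alpha chain of C4b-binding protein (3.00 ± 0.66), Itgam, the partner of Itgb2 in complement receptor CR3 (2.27 ± 0.11), the ficolin Fcnb of the lectin pathway (2.08 ± 0.08) and properdin, Cfp (1.03 ± 0.08). The lower ones were vitronectin, Vtn, a soluble inhibitor of the attack complex (-2.19 ± 0.08), C4bpb (-1.71 ± 0.52) and the C1 protease C1r (-1.03 ± 0.03). Its partner protease C1s was at -0.75 and C4a at -0.97, while C2 was at 0.69. Serping1, the inhibitor of C1r and C1s, was at -0.86. The membrane regulators Cd46, Cd55 and Cr1l were at -0.91, -0.60 and -0.12.

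In the proximal nerve 5 of the 26 genes were higher and 5 lower, with a median of -0.13, where 11.7% of all genes were higher and 11.8% lower. C5ar2 (at least 3.25), Itgam (2.12 ± 0.11), C4bpa (2.06 ± 0.66), Fcnb (1.5 ± 0.08) and factor B, Cfb, of the alternative pathway (1.14 ± 0.08) were higher. Vtn (-2.19 ± 0.08), the ficolin Fcna (-1.89 ± 0.08), C4bpb (-1.34 ± 0.45), C4a (-1.12 ± 0.09) and factor D, Cfd (-1.02 ± 0.06) were lower. With normexp 6 of the 26 were 2-fold apart in place of 10, while over all genes 828 were higher and 785 lower in place of 1429 and 1450. In the dorsal hemisection cord 9 of 25 measured genes were higher and 3 lower, with a median of 0.65, where 10.2% of all genes were higher and 9.24% lower. Among the higher ones were Fcnb (3.73 ± 0.16), Cfp (2.88 ± 0.13), Fcna (2.24 ± 0.17), the endothelial and myeloid receptor Cd93 (2.05 ± 0.07), C2 (1.78 ± 0.09), Cfd (1.68 ± 0.06), Itgam (1.44 ± 0.09) and C5ar2 (1.01 ± 0.29). Lower were the complement inhibitor Susd4 (-1.54 ± 0.26), C4bpb (-1.49 ± 0.19) and clusterin, Clu (-1.16 ± 0.02). Itgam, like Itgb2, was thus at least 2-fold higher in all 3 of these comparisons, and Fcna was higher in the hemisection cord while it was lower in the proximal nerve.

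**Figure D4:**
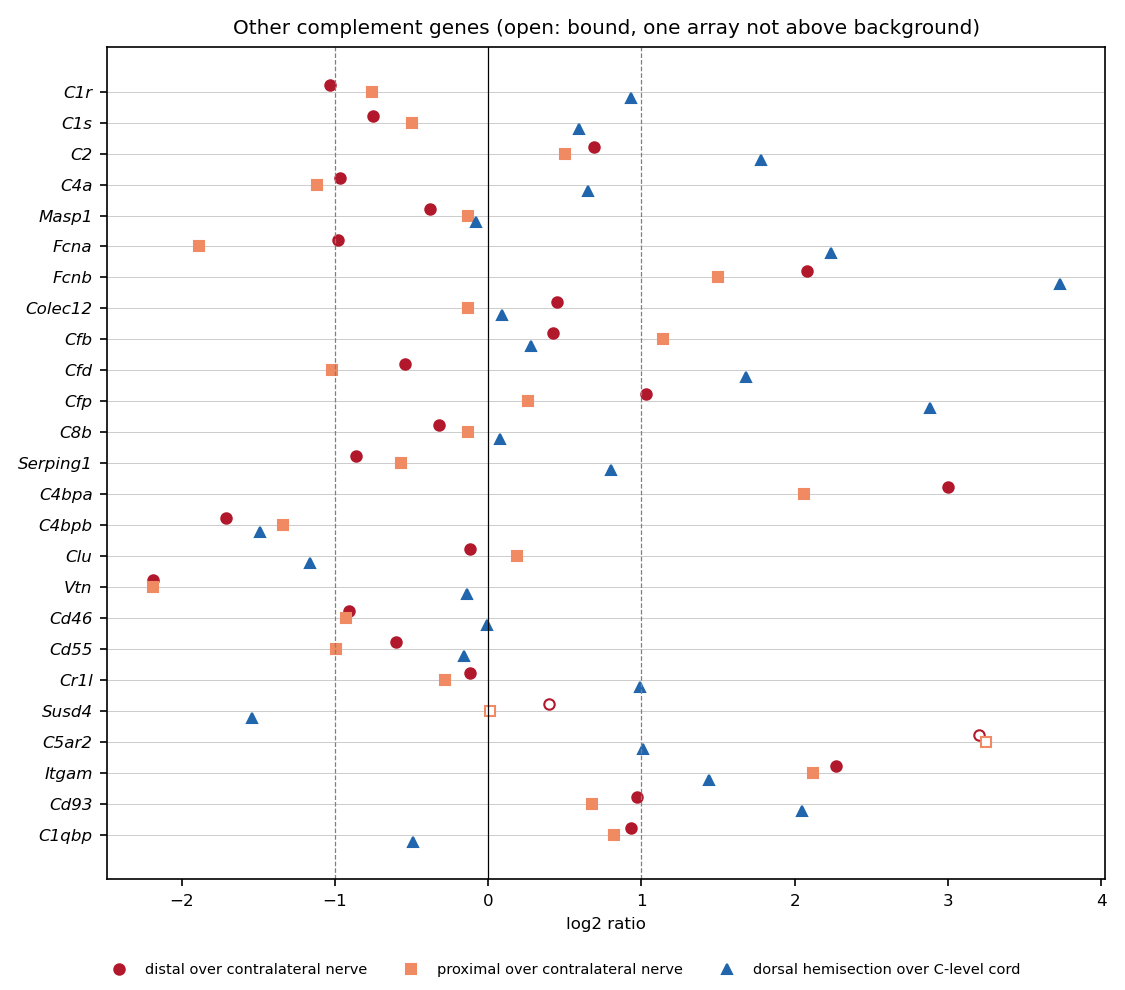
Log2 ratios of 25 other complement genes with values, in the distal (red circles) and proximal (orange squares) over the contralateral nerve and in the dorsal hemisection over the C-level cord (blue triangles, none for C4bpa, which was above background in neither cord sample). Open symbols are bounds and dashed lines the 2-fold threshold. C5ar2, Itgam and Fcnb lie above 1 in all 3, C4bpb below -1 in all 3, and Fcna lies at -0.98 and -1.89 in the nerve and at 2.24 in the cord.

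Between tissues 16 of the 26 other genes were at least 2-fold higher in the contralateral nerve than in the C-level cord and 4 lower, with a median of 1.75 beside 0.09 over all genes. Of all genes 19.8% were higher and 18.6% lower, so the count of lower genes lies near the background. All 4 classical pathway genes were higher: C1s (3.99 ± 0.07), C1r (3.49 ± 0.04), C2 (1.46 ± 0.11) and C4a (1.0 ± 0.09). So were the alternative pathway genes Cfd (5.76 ± 0.07), Cfp (2.77 ± 0.14) and Cfb (2.04 ± 0.08), and in the lectin pathway Fcna (5.29 ± 0.17), Fcnb (3.21 ± 0.17) and the scavenger collectin Colec12 (2.65 ± 0.10). Regulators and receptors that were higher were Cd55 (2.77 ± 0.17), Cd93 (2.69 ± 0.08), Serping1 (2.42 ± 0.06), Cr1l (2.23 ± 0.09), C4bpa (at least 2.09) and Cd46 (1.22 ± 0.32). Lower in the nerve were Clu (-3.14 ± 0.03), Susd4 (at most -2.76), C4bpb (-1.57 ± 0.40) and C5ar2 (at most -1.5). The cell make-up of the samples differed as well. Adipocyte marker sums were 48300 in this nerve and 2340 in this cord, those of fibroblasts 657000 and 28800, and those of neurons 3580 and 80900. The part of these cells in the ratios was not tested.

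In unstimulated Schwann cells 19 of 24 measured genes were lower than in the contralateral nerve, with a median of -5.34 (20.8% of all genes were lower), and 1 was higher, C1qbp, which encodes a mostly mitochondrial protein that binds C1q (1.42 ± 0.07). The lower ones ran from at most -12.98 for Cfd and -12.02 for Serping1 to -1.28 ± 0.08 for Cr1l and at most -1.55 for C4bpa. C4bpa was at 4.86 in the contralateral nerve, near the 4.43 at which Serping1 was not above background in the cells. Among those between them were Cd93 (at most -8.94), Vtn (at most -8.70), Cfb (-8.48), Colec12 (at most -7.57), C4a (-7.56), Fcna (-6.72), C1s (-6.61), Fcnb (at most -6.09), C2 (-5.36), Cfp (-5.33), C1r (-4.36), Itgam (at most -4.34), Clu (-3.85) and Cd55 (-2.21). At 1 h of S100A8/A9 2 of 18 measured genes were called lower, C1s (-1.32 ± 0.22) and Fcna (-1.28), and at 24 h 1 of 19, Fcna (-1.68). Of all genes 1.34% and 0.626% were lower at these times. The Fcna ratios are taken against the lowest values well above background, 3.88 at 1 h and 3.48 at 24 h. They are not firm bounds, since C4bpb at 4.18 at 1 h and Cfp at 4.41 at 24 h were not above background. C8b of the attack complex and the lectin pathway protease Masp1 were not 2-fold apart in any of the 8 comparisons. Fcna was above background in the unstimulated cells (5.16) and in neither stimulated culture.

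For each of the 9 genes the closest patterns over the 8 arrays were found as the smallest root mean square difference, in log2 units, after each gene was centred on its own mean, among 12764 other genes. The points are 3 tissues and the measure is a description. For C1qa, C1qc, C6 and the 3 receptors the 3 culture values were not above background, and C3 was above it only at 24 h. Values at the floor thus enter these distances, and the fall to them weighs heavily. C3ar1 was closest to the Fc receptor Fcgr2b (0.21), the adaptor Lcp2 (0.35) and Bcl2a1 (0.37). Itgb2 was closest to the chemokine Ccl3 (0.31), Tbxas1 (0.47) and Tlr2 (0.48), and C5ar1 to the lectin receptor Clec4a3 (0.44), Lyve1 (0.63) and Igsf6 (0.67). The receptors were nearer to these genes than to each other, with C3ar1 at 0.77 and C5ar1 at 0.96 from Itgb2. C1qc was closest to Serping1 (0.74), Asgr2 (0.78) and the microglial receptor Trem2 (0.78), and C1qa to the globin gene Hbb-b1 (1.08), the lysozyme gene Lyz2 (1.16) and Lrg1 (1.2), with C1qc next at 1.25. Serping1 had 16.45 in the contralateral nerve and 14.83 in the hemisection cord, where C1qc had the opposite order (13.12 and 13.69). C1qb was closest to RT1-A2 (0.32), the smooth muscle myosin Myh11 (0.36) and Islr (0.38). C3 was closest to Nrxn2 (0.90), Bcas1 (0.90) and the protease Ctss (0.94), C6 to Colec12 (0.56), C13h1orf115 (0.56) and Gimap5 (0.63), and Cfi to Trim25 (0.18), Gpx1 (0.21) and the NADPH oxidase subunit Cyba (0.23).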

How the data were processed

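Total RNA was hybridised to 8 one-colour Agilent arrays, 1 per group. The authors' deposited table holds log2 values for 24938 rows (24894 probes and 44 controls), with the same median of 8.03 in every column. The manner of its normalization and its offset are not stated in these sources. Scanner files carry each spot's intensity, linear and background-subtracted by Feature Extraction 10.7.3.1 on a design of build rn4, per the file headers. Agilent Feature Extraction 10.5 stands in the submitters' processing notes. Probes were named through their accessions with RefSeq genes of GRCr8 (18006 of 30367 probes matched), a gene by its probe with the highest mean. Each ratio is the difference of 2 columns, the sample named first minus the other, and needs 1 array or both well above background. With only 1 of them so, the ratio is called a bound. It is taken against the lowest value well above background on the other array, or the gene's own value if higher. Such bounds are nominal, since some brighter probes on the same array were not above background. A probe counted as above background where at least 0.5 of its spots were flagged so on the scan that ranks as the column does, and technical errors come from that scan. The fold threshold was 2, and no test was possible with 1 array per group. Named were the 9 genes, every other listed complement gene at least 2-fold apart in a comparison, markers needed beside a result and the 3 closest patterns of each gene. The genes and lists were chosen with earlier results of these data known. Alternatives were the matching scans over the 75th percentile, normexp (offset 50, quantile, limma 3.58.1, on median signals, since mean signals were not used here), the mean of probes, other background filters and the scans as recorded. Some genes of the lists are counted but not reported by name here. The ratio and call code was tested on simulated data. Analyses used Python 3.11.15, numpy 2.4.6, pandas 2.3.3 and R 4.3.3.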

Additional observations from a re-analysis of the deposited data

Results flagged for a closer look

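Some genes had ratios of opposite sign in the 2 injured segments or at the 2 stimulation times, each beyond its technical error, and the difference itself was not tested. Among the 9 genes this was C1qb, at -1.07 at 1 h and 0.13 at 24 h of S100A8/A9. The C1 proteases went the same way, with C1r at -0.93 at 1 h and 0.10 at 24 h and C1s at -1.32 and 0.17. Clu was at 0.31 at 1 h and -0.06 at 24 h, and Cr1l at 0.08 and -0.08. In nerve Colec12 was at 0.45 in the distal and -0.13 in the proximal segment, and Clu at -0.12 and 0.19, in the same order. Apart from C1qb and C1s at 1 h, none of these ratios reached 2-fold.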

How the results depend on the processing

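No paired analysis was possible because every group had 1 array. All 30 ratios of the 9 genes at least 2-fold apart kept their sign with the matching scans over the 75th percentile and with normexp. Both process the same hybridisations in another way. The sign also stayed with the mean of probes and without a background filter, as it did for the 23 that had a value with both arrays above background. The mean of probes and the filters could not turn a sign, since each gene had 1 probe and a filter leaves the sign as it is. With the scans as recorded each pair compares other arrays than its name gives by the headings, so it is no check of the named pair. There 11 of 24 turned. These were, in the proximal over the contralateral nerve, Cfi -1.65, C3ar1 -5.95, C5ar1 -6.60 and Itgb2 -7.58, C1qb at -0.07 in the hemisection cord and 0.81 at 1 h, C3 at 9.61 in the nerve over cord, and C6 1.11, C3ar1 0.33, C5ar1 2.55 and Itgb2 0.64 in the unstimulated Schwann cells over the contralateral nerve.

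Counts of the 9 genes and of the 26 other genes at least 2-fold apart with the scans as recorded were 8 and 16 for the distal over the contralateral nerve, 9 and 21 for the proximal over the contralateral nerve, 9 and 21 in the distal over the proximal nerve, 0 and 1 in the hemisection cord, 5 and 9 at 1 h, 7 and 20 at 24 h, and 9 of the 9 genes in the nerve over cord. Over all genes, those higher and lower with these scans numbered 1675 and 2491, 2089 and 3529, and 2641 and 1828 in the 3 nerve pairs, in the same order. They numbered 88 and 76 in the hemisection cord, 1350 and 1411 at 1 h, 2602 and 2613 at 24 h, and 3485 and 1973 in the nerve over cord. Elsewhere the counts moved mostly in the Schwann cells, where few genes were above background. With normexp the other genes apart were 6 in the proximal nerve, 0 at 1 h and 0 at 24 h. Over all genes normexp gave 828 higher and 785 lower in the proximal nerve, 42 and 50 at 1 h, and 6 and 10 at 24 h. The matching scans over the 75th percentile gave 0 of the 9 genes at 1 h. With both arrays above background the other genes were 1 at 1 h and 0 at 24 h, and the unstimulated cells over the contralateral nerve had 1 of the 9 and 12 of the others, since fewer genes had values. Without a filter there were 3 of the 9 and 4 of the others at 1 h, and 3 and 2 at 24 h, values at background among them. The number of arrays, 1 per group, limits every comparison.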

Other observations

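At 1 h of S100A8/A9 the lower values of C1qb, C1r and C1s stood beside a lower one of the Schwann cell marker Ngfr, the low-affinity neurotrophin receptor (-1.23), with Pmp22 at -0.63 and Sox10 at -0.57. S100b was at 0.09 and Egr2 at 0.91. The early culture had a summed Schwann cell marker level of 150000, against 241000 in unstimulated cells and 254000 at 24 h, where Ngfr was at -0.03.

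In the hemisection cord the microglial receptor gene Trem2 was at 1.98 and P2ry12 at 1.16 while Cx3cr1 was at 0.13 and Sall1 at -0.06, so the genes of the microglia list did not move alike. The neutrophil genes S100a8 and S100a9, which encode the proteins given to the cultures, were at 2.04 and 1.68 there.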
